A study of Mus musculus with 18 samples.

Results

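Cyclin D1, encoded by Ccnd1, and 9 other genes that set the passage from G1 into S phase were followed in mouse neural cells that had received a mix of 3 microRNA mimics. The 10 genes were Ccnd1, Ccnd2, Ccnd3, Ccne1, Ccne2, Cdk4, Cdk6, Cdkn1a, Cdkn1b and Rb1. They were taken by gene symbol, and each matched 1 of the 53342 genes in the table. The set was selected on the rise of Ccnd1 in mix against control astrocytes, and the same contrast of the other genes was also in view. Those values are therefore given as a description, with each gene's log2 fold change, its standard error (SE) and whether it passed the test run over all genes, and with no p-value.

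The 3 cell types were Neuro-2A, a mouse neuroblastoma line, primary mouse astrocytes in culture, and BV-2, a microglial line immortalised with viral oncogenes. All are labelled wild type. Each was transfected for 24 h with mimics at 25 nM, either equal parts of miR-99b-3p, miR-199a-3p and miR-140-5p (the mix) or cel-miR-67, a nematode microRNA (the control mimic). Each of the 6 groups has 3 libraries, 18 in all. The transfection reagent was common to both arms, and no untransfected cells enter any comparison, so "higher" and "lower" mean mix libraries relative to control mimic libraries. The labels do not say whether the replicates of a group were separate cultures, and the errors then measure only the spread between libraries.

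In G1, the D-type cyclins bind the kinases CDK4 and CDK6, and these complexes begin to phosphorylate the retinoblastoma protein, which holds E2F transcription factors inactive. Cyclin E with CDK2 continues this step, and released E2F switches on genes of DNA replication, the E cyclins among them. The inhibitors p21 (Cdkn1a) and p27 (Cdkn1b) act mainly on cyclin E and CDK2 complexes. Cyclin D1 is known as the member of this circuit that answers growth factors and adhesion, and astrocytes in culture, unlike most neurons, can re-enter the cycle.

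The mature sequences of the mimics that RefSeq lists are shown because their seed, bases 2 to 8 in capitals, is what the search for target matches used. They are written 5′ to 3′ and credited to RefSeq for GRCm38.p6.
miR-199a-3p: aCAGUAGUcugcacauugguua
miR-99b-3p: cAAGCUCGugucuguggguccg
The seeds differ, and their matches on a transcript read ACTACTG and CGAGCTT. For miR-140-5p and cel-miR-67 the matches AACCACT and GGTTGTG were searched. An 8mer match adds an A after these 7 letters, and a 7mer-m8 match has the 7 letters alone.

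Libraries held 18.5 to 27.9 M counts, and no 2 replicates were closer than counting noise allows. Number 1 stood apart from numbers 2 and 3 in both Neuro-2A arms, and control replicate 2 stood apart in BV-2. Each cell type carried its own markers, such as Tubb3 in Neuro-2A, Gfap in astrocytes and Cd68 in BV-2. The astrocyte cultures also held RNA of other cells. Over the whole list, summed levels in TPM (transcript abundance scaled to a fixed total per library) of the 8 fibroblast and pericyte markers were 1228 to 1477 in the mix arm and 1673 to 1870 in the control arm, and those of 10 astrocyte markers were 8620 to 9267 and 10250 to 10780. The first sum is mostly Acta2, at a mean of 1500 TPM, while the next marker, Col1a1, averaged 33.1 TPM. In the test over all genes, 2 of its 7 tested markers were lower and 2 higher. Among the astrocyte markers Gfap averaged 5294 ± 365.5 TPM and Aqp4 1264 ± 587.2 TPM (SD of 6 libraries). Of these 10 markers 5 were lower and 1 higher, beside 40.2% of all genes in either direction. The 12 microglia and macrophage markers summed to 740.4 to 995.2 and 730.0 to 803.9 TPM, the 10 oligodendrocyte lineage markers to 1077 to 1142 and 1121 to 1139, the 7 ependymal markers to 1037 to 1196 and 1133 to 1232, and the 9 neuron markers to 296.5 to 300.8 and 281.6 to 291.9. Endothelial RNA was scarce, with 4 of 6 markers at the floor of the deposited values in all 6 astrocyte libraries and a sum of at most 4.84 TPM. The part of these cells in the astrocyte results was not tested. In such sums from bulk RNA, fewer cells of a type, less RNA per cell and a change of single marker genes cannot be told apart.

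Ccnd1 was the 1 gene of the set that rose with the mix in all 3 cell types. The test was edgeR's quasi-likelihood test within a cell type, and a gene is called where its Benjamini-Hochberg adjusted p over all tested genes was under 0.05. In astrocytes 6 of 10 genes were called, with Ccnd1 and Ccne2 higher and Ccnd2, Ccnd3, Cdkn1a and Rb1 lower, where 40.2% of all tested genes were called. In Neuro-2A 2 of 8 tested genes were called, Ccnd1 higher and Rb1 lower, against 12.9% of all genes. In BV-2 3 of 10 were called, Ccnd1 and Ccnd2 higher and Cdk6 lower, against 10.0%. By direction, the shares of all genes called lower and higher were 20.6% and 19.7% in astrocytes, 7.88% and 5.01% in Neuro-2A, and 5.41% and 4.61% in BV-2. The TPM of the arms did not overlap for 8 of the 10 genes in astrocytes, 4 in BV-2 and 2 in Neuro-2A, beside 52.4%, 32.8% and 32.5% of all tested genes. The set was chosen with these contrasts in view, so nothing is read from its counts. Ccnd2 and Cdk6 were too low in Neuro-2A to be tested. Of the 12626 genes tested in every cell type, 1.39% were higher in all 3.

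With numbers 2 and 3 alone, Neuro-2A also had 2 genes called. With the replicate number as a block it had 3, Ccne2 higher among them, where 37.8% of all genes were called. Without control replicate 2, BV-2 had 4, since Rb1 was then called lower (log2 fold change −0.17). Another scaling changed the balance of calls over all genes. In astrocytes 48.9% of the called genes were higher, against 68.7% with scaling by library size only and 66.7% with limma on log2(TPM + 1). In BV-2 the share was 46.0%, against 61.8% and 68.3%. The median log2 fold change of the tested members was −0.06 in astrocytes, 0.00 in Neuro-2A and 0.05 in BV-2, beside 0.01, 0.01 and 0.00 for all tested genes.

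**Figure D1:**
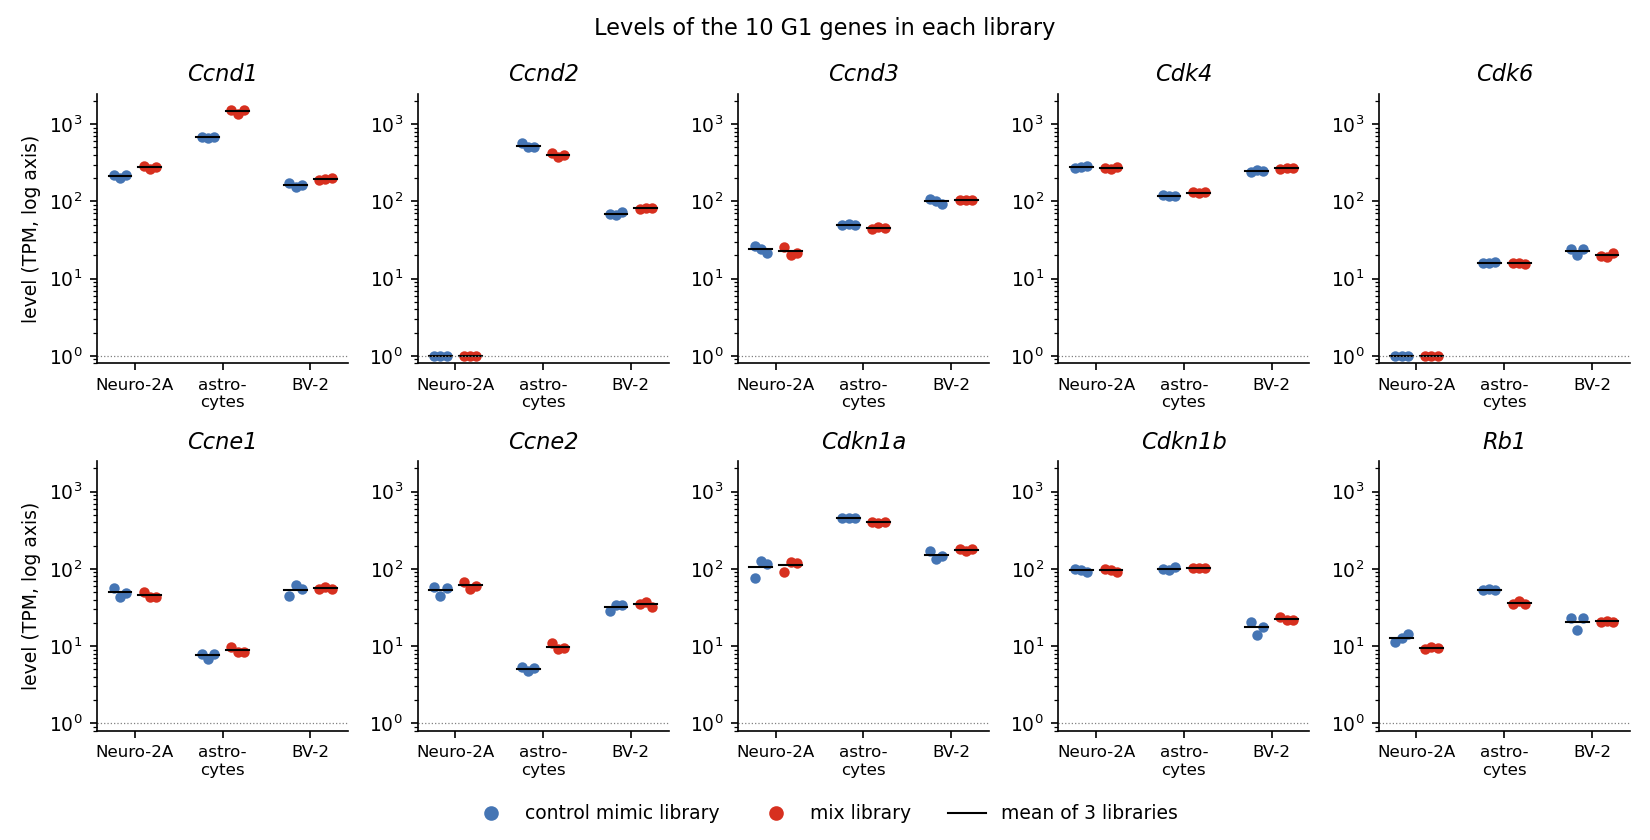
Level of each of the 10 genes in every library (TPM, log axis), by cell type, with control mimic libraries in blue, mix libraries in red and the mean of 3 libraries as a bar; the dotted line is the floor of the deposited values at 1 TPM. In astrocytes the mix libraries of Ccnd1 sit between 1373 and 1548 TPM, above the control libraries at 653.1 to 692.2 TPM, while Ccnd2 and Cdk6 lie at the floor in Neuro-2A.

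The gene for cyclin D1, Ccnd1 (mm10 chr7:144929931-144939925, minus strand), was the most abundant D-type cyclin in all 3 cell types. In astrocytes it stood at 1513, 1373 and 1548 TPM in mix libraries 1 to 3 and at 692.2, 653.1 and 685.7 TPM in control libraries 1 to 3. The groups lay far apart, and even the lowest mix library was well above the highest control. The fold was 2.09, a log2 fold change of 1.06 ± 0.04 (SE, n = 3 per arm). It was the largest change of the 10 genes in any cell type.

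In Neuro-2A, Ccnd1 was at 283.5, 260.9 and 281.6 TPM in the mix and at 217.3, 204.0 and 221.4 TPM in the control. The groups did not overlap, and number 2 was the lowest library of both arms. Its log2 fold change was 0.38 ± 0.05, and the gene was called under every alternative run for Neuro-2A. In BV-2 the libraries held 191.9, 193.1 and 198.3 TPM in the mix and 171.4, 152.7 and 161.4 TPM in the control. The mix libraries were all higher, by a smaller margin than in the other cells, with a log2 fold change of 0.20 ± 0.05. This BV-2 call was lost without any 1 of the 3 mix replicates and without control replicate 3, where the values were 0.18 to 0.21. The gene Oraov1 overlaps Ccnd1 on the other strand. It averaged 190 to 442 counts, where Ccnd1 had at least 4732 in every library, and was not called in any cell type.

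Cyclin D2 (Ccnd2, chr6:127125162-127152193, minus strand), the D-type cyclin of many progenitor cells, went the other way in astrocytes. The mix libraries held 418.4, 380.8 and 399.4 TPM and the controls 564.2, 507.1 and 500.3 TPM. Every mix library was below every control, and the log2 fold change was −0.45 ± 0.05. In BV-2 the gene was higher in the mix, at 80.4, 82.4 and 82.0 TPM against 67.8, 65.7 and 72.4 TPM. Its log2 fold change there was 0.18 ± 0.05, with no overlap of the groups. That call was lost without any 1 of the 3 mix replicates or control replicate 1, with no filter on low counts and in the fit of all 18 libraries. Neuro-2A held 1 to 6 counts of Ccnd2 per library, all listed at the floor, so no fold is given for it.

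Cyclin D3 (Ccnd3, chr17:47505051-47599691, plus strand), often the D-type cyclin of blood cells, fell slightly in astrocytes. It stood at 44.0, 46.4 and 45.7 TPM in the mix and at 49.1, 51.5 and 49.0 TPM in the control. The groups were close but did not overlap, with a log2 fold change of −0.20 ± 0.04. The call was lost in the fit of all 18 libraries, at −0.19. In Neuro-2A (20.3 to 25.7 against 21.4 to 26.7 TPM) and BV-2 (103.1 to 105.5 against 93.4 to 106.2 TPM) the groups overlapped and the gene was not called. Ccnd3 overlaps Bysl on the other strand and has a processed pseudogene in the table, so reads of these could be shared, and its values are less certain.

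Added up, the D-type cyclins of astrocytes came to 1800 to 1993 TPM in the mix and 1212 to 1306 TPM in the control. Ccnd1 made up 76.3% to 77.7% of that sum in the mix and 53.02% to 55.52% in the control. The larger sum thus came with a larger Ccnd1 share, as Ccnd2 and Ccnd3 were lower. In BV-2 the sum was 375.4 to 385.9 against 319.3 to 345.4 TPM, with a Ccnd1 share of 50.8% to 51.4% against 47.8% to 49.6%. In Neuro-2A the sum was 281.2 to 309.1 against 228.1 to 244.0 TPM, with a Ccnd1 share of 91.7% to 92.8% against 89.05% to 91.2%.

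**Figure D2:**
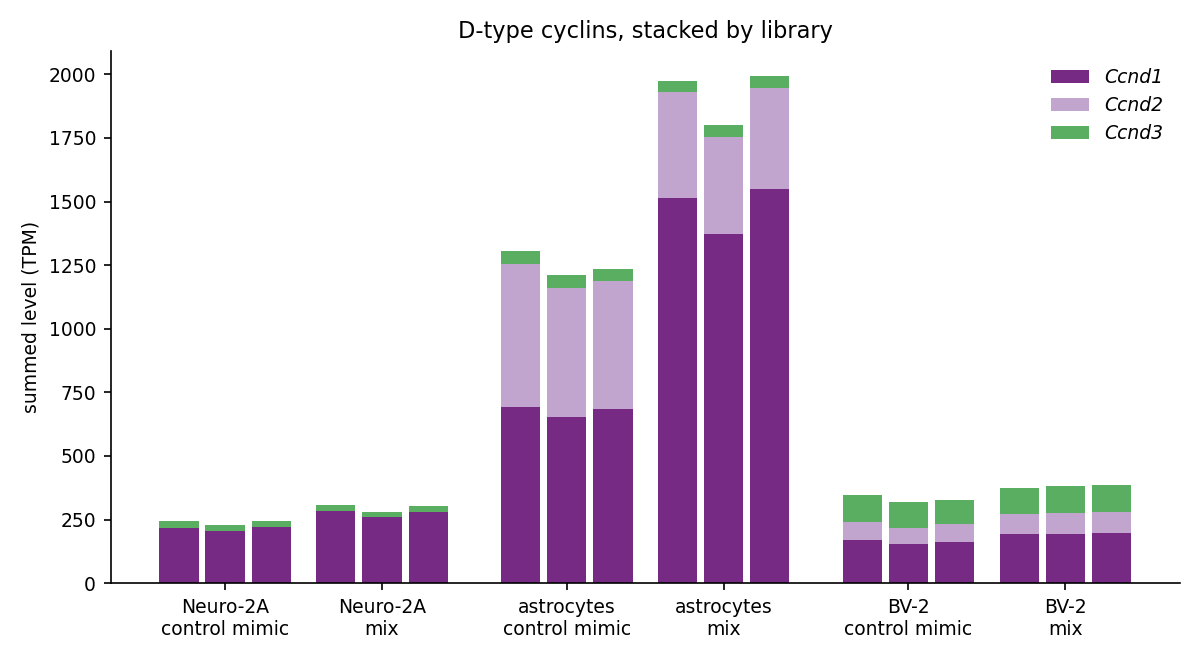
Levels of the 3 D-type cyclins stacked per library (TPM), in replicate order within each group of 3. Astrocyte bars reach 1800 to 1993 TPM in the mix and 1212 to 1306 TPM in the control, with the Ccnd1 segment longer and the Ccnd2 segment shorter in the mix, while the bars of the cell lines stay below 386 TPM.

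Neither of the partner kinases was called in astrocytes. Cdk4 (chr10:127063534-127067920, plus strand) was at 130.5, 126.6 and 131.6 TPM in astrocyte mix libraries and at 119.8, 118.7 and 115.9 TPM in controls. The groups did not overlap, yet the log2 fold change of 0.07 ± 0.03 was not called. With scaling by library size only and with limma on log2(TPM + 1) it was called, at 0.15 and 0.13. In BV-2 Cdk4 was at 264.9 to 273.0 TPM in the mix and 238.8 to 256.5 TPM in the control, without overlap and not called (0.05 ± 0.06). In Neuro-2A it was at 266.0 to 277.9 and 271.1 to 290.6 TPM, also not called. Tspan31 overlaps Cdk4 on the other strand with counts of the same order and was not called in any cell type.

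Cdk6 (chr5:3341485-3531008, plus strand), the other kinase of the D-type cyclins, was scarcely detected in Neuro-2A, with 0 to 3 counts per library, all listed at the floor. In BV-2 it stood at 19.6, 19.3 and 21.2 TPM in the mix and at 23.9, 20.3 and 24.5 TPM in the control. The groups overlapped through control replicate 2, the library that stood apart. Its log2 fold change was −0.25 ± 0.07 and was called lower. The call was lost with scaling by library size only, with limma, and without any 1 of the other 5 libraries, while without control replicate 2 it was kept at −0.31. In astrocytes Cdk6 was at 15.6 to 16.1 TPM in the mix and 15.8 to 16.2 TPM in the control and was not called (−0.07 ± 0.04).

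The E-type cyclins, which activate CDK2 at the end of G1, differed between each other. Ccne2 (chr4:11191351-11204779, plus strand) rose in astrocytes from 5.38, 4.79 and 5.17 TPM in the control to 11, 9.30 and 9.32 TPM in the mix. The mix libraries were all higher than the controls, although both groups were low, with a log2 fold change of 0.88 ± 0.09. In Neuro-2A the libraries held 67.2, 55.4 and 60.3 TPM in the mix and 58.4, 44.1 and 57.1 TPM in the control. The groups overlapped, but within each replicate number the mix library was higher. The log2 fold change of 0.22 ± 0.12 was not called, and with the replicate number as a block it was (0.22 ± 0.05), where 37.8% of all genes were called. In BV-2 Ccne2 was not called (0.05 ± 0.09). Ints8, which overlaps Ccne2 on the other strand, was not called in any cell type.

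Ccne1 (chr7:38097984-38107534, minus strand) was not called in any cell type. In astrocytes it was at 9.86, 8.32 and 8.47 TPM in the mix and 7.94, 6.77 and 8.0 TPM in the control, a log2 fold change of 0.16 ± 0.10. These groups did not overlap, but their gap was small beside the spread of the libraries. In Neuro-2A it was at 43.5 to 49.6 against 43.7 to 56.9 TPM, and in BV-2 at 54.3 to 57.8 against 44.1 to 62.7 TPM. The log2 fold changes were −0.11 ± 0.10 and −0.02 ± 0.12.

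Of the inhibitors, Cdkn1a (p21, chr17:29090979-29100722, plus strand), a textbook target of p53, fell in astrocytes. It was at 403.5, 398.7 and 401.1 TPM in the mix and at 460.8, 452.3 and 460.9 TPM in the control. The libraries within each arm were very close, and the groups lay apart by a log2 fold change of −0.25 ± 0.03. The call was lost in the fit of all 18 libraries, at −0.24. In Neuro-2A number 1 was low in both arms, at 90.3 TPM against 124.1 and 120.7 TPM in the mix and at 76.1 TPM against 127.4 and 116.5 TPM in the control. The spread between numbers exceeded the difference between arms there (0.09 ± 0.20, not called). In BV-2 Cdkn1a was at 182.3, 171.8 and 180.3 TPM in the mix and at 172.6, 133.5 and 146.2 TPM in the control, not called at 0.17 ± 0.08, and called at 0.27 without control replicate 1.

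Cdkn1b (p27, chr6:134920401-134925513, plus strand), an inhibitor known for its part in keeping cells quiescent, was not called in any cell type. In BV-2 it was at 23.8, 21.9 and 22.05 TPM in the mix and at 20.6, 13.9 and 17.7 TPM in the control. The groups did not overlap, and control replicate 2 was the lowest. The log2 fold change of 0.31 ± 0.11 was called without control replicate 1 (0.44) and in the fit of all 18 libraries (0.31). Without control replicate 2, the library that stood apart, it was 0.19 and not called. In Neuro-2A (92.5 to 100.5 against 91.5 to 100.4 TPM) and astrocytes (102.0 to 103.1 against 97.9 to 104.9 TPM) the arms overlapped.

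The retinoblastoma gene Rb1 (chr14:73183673-73325822, minus strand), whose protein is the substrate of the cyclin and kinase pairs above, was lower with the mix in 2 cell types. In astrocytes it was at 34.9, 38.0 and 34.98 TPM in the mix and at 52.5, 55.0 and 54.0 TPM in the control. The arms were well separated, with a log2 fold change of −0.65 ± 0.04. In Neuro-2A it was at 9.23, 9.62 and 9.34 TPM in the mix and at 11.4, 12.8 and 14.5 TPM in the control. The mix libraries were all lower, with a log2 fold change of −0.44 ± 0.10, and leaving out any 1 library other than control replicate 1 ended the call (−0.34 to −0.46). In BV-2 it was at 20.6, 21.4 and 20.8 TPM in the mix and at 22.8, 15.9 and 23.2 TPM in the control. Control replicate 2 was below all mix libraries and the other 2 controls above them, so the gene was not called (−0.04 ± 0.11). Lpar6, which lies within an intron of Rb1 on the other strand, was itself lower in astrocytes (−0.18 ± 0.06). Rcbtb2, the other overlapping coding gene, was not called in any cell type. The strand setting of the authors' counting is not given in the sources used here, so such overlaps leave some uncertainty.

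Rb1 was also the 1 gene of the 10 with an 8mer or 7mer-m8 match to a mimic of the mix in its longest annotated 3′ UTR. The match, for miR-199a-3p, begins at base 627 of a UTR of 1709 bases. In 30 bases at chr14:73196566-73196595 of mm10, read on the minus strand, it is in capitals.
Rb1 match to miR-199a-3p: gatactgtcttACTACTGAcacagatttca
The same UTR held an 8mer match to the control mimic cel-miR-67 at base 54, here in chr14:73197139-73197168 and in capitals, so both arms carried a mimic with a match in Rb1.
Rb1 match to cel-miR-67: tcctggctcatGGTTGTGActagttcccag
Ccne1 held an 8mer match to cel-miR-67 in its UTR of 531 bases, shown from chr7:38098118-38098147 on the minus strand.
Ccne1 match to cel-miR-67: ctgtgaccagtGGTTGTGAgcaagtgtggg
Cdk6 held 2 7mer-m8 matches to cel-miR-67, and Cdkn1b held 1. The UTR of Ccnd1, with 2676 bases, had no such match to any of the 4 mimics, and neither did those of Ccnd2, Ccnd3, Ccne2, Cdk4 and Cdkn1a. Among all tested genes with a UTR, 20.9% in astrocytes, 20.5% in BV-2 and 20.2% in Neuro-2A held a match to the mix, and 11.8% to 11.9% held one to cel-miR-67. A match is a run of letters and not a measured binding site. With the weaker 7mer-A1 class, which lacks the first of the 7 letters and keeps the final A, 5 of the 10 genes held a match to the mix. These were Ccnd2, Ccne2, Cdk6, Cdkn1a and Rb1. The shares of all genes above do not include this class, and none was computed with it, so nothing is read from that count.

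**Figure D3:**
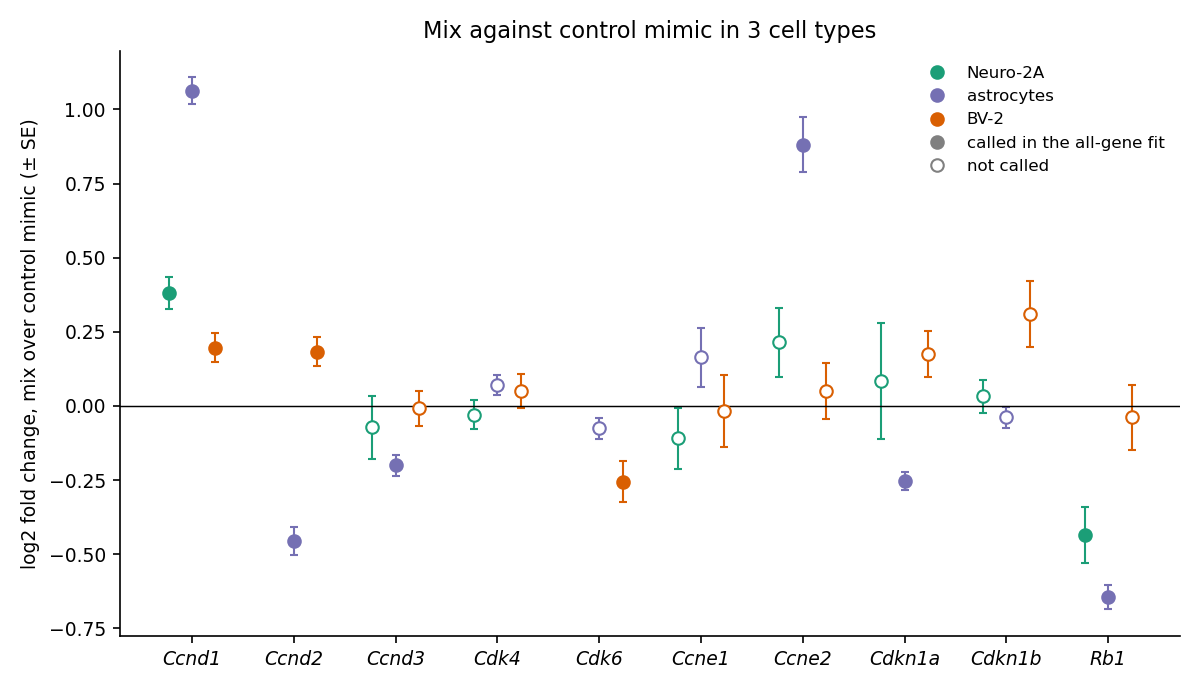
Log2 fold change of each gene, mix over control mimic, with its SE as the bar (3 libraries per arm), for the 3 cell types; filled points were called in the test over all genes and open points were not. Ccnd1 lies above 0 in each cell type, at 1.06 in astrocytes, 0.38 in Neuro-2A and 0.20 in BV-2, while Ccnd2 lies at −0.45 in astrocytes and at 0.18 in BV-2.

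Whether the mix effect differed between cell types was asked with interaction contrasts, fitted by edgeR over 6 group means and all 18 libraries. Medium, culture and seeding density also differed between the cell types, and such differences cannot be told apart from cell type. The effect on Ccnd1 was larger in astrocytes than in Neuro-2A by 0.69 ± 0.07 on the log2 scale and larger than in BV-2 by 0.88 ± 0.07. Both differences were called. Those of Ccne2 were called as well, at 0.67 ± 0.17 and 0.84 ± 0.18. The difference between astrocytes and BV-2 was also called for Ccnd2 (−0.62 ± 0.08) and Rb1 (−0.59 ± 0.13). The astrocyte contrast on which the set was chosen enters these differences, so nothing is read from their counts. Ccnd2 and Cdk6 were at the floor in Neuro-2A, so contrasts with Neuro-2A say little about them. Of the 10 genes, 2 differed between astrocytes and Neuro-2A, where 4.68% of all genes did, and 4 between astrocytes and BV-2, where 7.05% did. None was called between Neuro-2A and BV-2 (3.51% of all genes), where the difference of Ccnd1 was 0.19 ± 0.07. With the replicate number as a block, 2 were, Ccnd1 (0.19) and Cdkn1b (−0.28). The block also called Cdkn1a between astrocytes and Neuro-2A (−0.35) and BV-2 (−0.42), and Cdkn1b between astrocytes and BV-2 (−0.34). The Ccne2 difference between astrocytes and Neuro-2A was no longer called in a fit of those 12 libraries alone (0.64), and was lost without 9 of these 12 libraries in turn.

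In the control arm, 8 of the 10 genes were above the floor in every library of all 3 cell types, and Ccnd2 and Cdk6 were at the floor in Neuro-2A. By the test over all genes, 10 of the 10 genes differed between astrocytes and Neuro-2A and between astrocytes and BV-2, and 9 between Neuro-2A and BV-2. Most of all tested genes did so, 87.3%, 86.9% and 79.0%, and nothing is read from these counts. The cell types also differed in medium, culture and seeding density, which cannot be told apart from cell type here. Levels below are control arm means ± SD of 3 libraries, in TPM.

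Astrocytes had the most D1 and D2 cyclin and the most p21 and Rb1, and the least cyclin E. Ccnd1 was at 677.0 ± 20.9 in astrocytes, 214.2 ± 9.10 in Neuro-2A and 161.8 ± 9.37 in BV-2. Each step of that order was called (1.77 ± 0.05 from Neuro-2A to astrocytes and 0.24 ± 0.05 from BV-2 to Neuro-2A, log2). Ccnd2 was at 523.9 ± 35.1 in astrocytes and 68.6 ± 3.46 in BV-2. Cdkn1a was at 458.0 ± 4.93 in astrocytes, 150.8 ± 19.96 in BV-2 and 106.7 ± 27.02 in Neuro-2A. The ranges of the last 2 did not overlap, and their difference was called (−0.66 ± 0.14, Neuro-2A minus BV-2). Rb1 ran in the same order, at 53.8 ± 1.23, 20.6 ± 4.06 and 12.9 ± 1.53.

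The cell lines had more of both E cyclins and of Cdk4. Ccne1 was at 53.8 ± 9.30 in BV-2, 49.8 ± 6.64 in Neuro-2A and 7.57 ± 0.70 in astrocytes. The cell lines overlapped, and their difference of −0.28 ± 0.11 (Neuro-2A minus BV-2), although called, was lost with scaling by library size only, with DESeq2, in a fit of the 9 control libraries and without 3 of the libraries in turn. Ccne2 was at 53.2 ± 7.90 in Neuro-2A, 32.2 ± 3.07 in BV-2 and 5.12 ± 0.30 in astrocytes, each step called. Cdk4 was at 281.3 ± 9.79 in Neuro-2A, 247.5 ± 8.86 in BV-2 and 118.1 ± 2.04 in astrocytes, and the cell lines, whose TPM did not overlap, were not called different (0.02 ± 0.05) except with scaling by library size only (0.17).

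Ccnd3 and Cdk6 were highest in BV-2 and Cdkn1b was lowest there. Ccnd3 was at 100.2 ± 6.42 in BV-2, 49.9 ± 1.45 in astrocytes and 24.0 ± 2.68 in Neuro-2A, and Cdk6 at 22.9 ± 2.27 in BV-2 and 16.0 ± 0.26 in astrocytes. Cdkn1b was at 100.8 ± 3.64 in astrocytes, 96.1 ± 4.47 in Neuro-2A and 17.4 ± 3.35 in BV-2. The first 2 overlapped. Their difference of 0.18 ± 0.07 was called, but it turned to −0.15 with scaling by library size only and lost its call with no filter on low counts, in a fit of the 9 control libraries and without 4 of the control libraries in turn.

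Around these genes, 60 of the 96 tested genes of the wider circuit (62.5%) were called in astrocytes, where 40.2% of all genes were. In Neuro-2A 15 of 92 were called (16.3%, against 12.9% of all genes) and in BV-2 17 of 92 (18.5%, against 10.0%). The lists were chosen with earlier results of these data known, so these shares are a description. In astrocytes, 50 to 58 list calls were made without any 1 library. Leaving out 1 library gave 6 or 7 list calls in Neuro-2A (without mix replicate 2 or 3, or control replicate 2 or 3). In BV-2 it gave 5 to 8 without any of the mix replicates and 33 without control replicate 2. In astrocytes, of 21 G1/S genes under E2F control, 17 were higher and none was lower, with a median log2 fold change of 0.38 beside 0.01 for all genes. There Uhrf1, a factor of DNA methylation upkeep, rose from 15.5 ± 0.79 to 31.5 ± 3.59 TPM (0.95 ± 0.08). The replication licensing gene Cdc6 rose from 2.71 ± 0.26 to 5.12 ± 0.14 TPM (0.85 ± 0.09), and Mcm2, of the replicative helicase, from 18.6 ± 1.09 to 31.3 ± 3.07 TPM (0.69 ± 0.07). These 3 are also the genes of the list whose UTR held a match to the control mimic cel-miR-67, a 7mer-m8 each. Cdc6 held a 7mer-m8 match to miR-99b-3p of the mix as well. Among all genes with a UTR tested in astrocytes, 11.8% held a match to the control mimic, and 20.2% of those called higher did. The part of these matches in the result was not tested. All 12 genes of S, G2 and M phase were higher in astrocytes, with a median of 0.40. Of these the mitotic cyclin Ccnb1 rose from 10.7 ± 0.50 to 29 ± 1.34 TPM (1.38 ± 0.06), followed by the mitotic regulators Cdc20 (0.59 ± 0.06) and Bub1 (0.57 ± 0.08). The counts of both lists were similar under both other scalings, at 18 of 21 and 12 of 12. The sums of the other cell types' markers given above stand beside these counts, and their part was not tested.

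In Neuro-2A, 5 of the 21 E2F-controlled genes were higher and 1 was lower (12.9% of all genes called). Among the higher ones, Mcm4 stood at 125.2 ± 8.19 against 96.5 ± 10.4 TPM (0.39 ± 0.08), and Mcm3, of the same helicase, rose by 0.30 ± 0.08. Uhrf1 was again higher (0.31 ± 0.08). The lower one was Cdt1 (−0.28 ± 0.06). With the replicate number as a block, which called 37.8% of all genes, 13 were higher and 1 lower. With numbers 2 and 3 alone, 10 were higher and 1 lower. Leaving out 1 library lowered the count of calls from 6 to 3 without mix replicate 1, 1 without mix replicate 2, 0 without mix replicate 3, 1 without control replicate 2 and 2 without control replicate 3. Of the 12 S, G2 and M phase genes 1 was higher, Ccnb1 (0.73 ± 0.06), and the block added 1 more. In BV-2, where 10.0% of all genes were called, 2 of the 21 were higher, Uhrf1 (0.39 ± 0.06) and the thymidine kinase Tk1 (0.35 ± 0.08). The licensing factor Cdt1 was lower, at 134.6 ± 0.27 against 198.9 ± 7.06 TPM (−0.63 ± 0.05), and its UTR held an 8mer match to miR-199a-3p. In astrocytes Cdt1 was not called (0.01 ± 0.07). Of the 12 S, G2 and M phase genes 5 were higher in BV-2, led by Ccnb1 (0.97 ± 0.06), Top2a (0.33 ± 0.06), the topoisomerase of mitotic chromosomes, and Ccnf (0.30 ± 0.06). That count was 1 without mix replicate 1 or 2 and 2 without mix replicate 3. For the 21 G1/S genes, 6 were called in BV-2 without control replicate 2 and 2 without any 1 of the mix replicates or control replicate 3, in place of 3. Ccnb1 held an 8mer match to cel-miR-67 and a 7mer-m8 match to miR-140-5p. Ccnf, also higher in BV-2, held a 7mer-m8 match to miR-199a-3p. The part of these matches was not tested.

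Of the RB relatives and E2F factors, 5 of 12 were higher and 1 lower in astrocytes, 3 of 12 higher in Neuro-2A and 1 of 11 in BV-2. Of all tested genes, 40.2%, 12.9% and 10.0% were called there, in either direction. Tfdp1, the partner through which E2F proteins bind DNA, was higher in every cell type. It was at 83.4 ± 2.41 against 56.4 ± 0.52 TPM in astrocytes (0.50 ± 0.04), 256.6 ± 11.5 against 204.1 ± 4.97 TPM in Neuro-2A (0.35 ± 0.05) and 131.7 ± 2.30 against 98.7 ± 4.02 TPM in BV-2 (0.35 ± 0.05). Astrocytes also had higher E2f3 (0.38 ± 0.05) and E2f1 (0.32 ± 0.07), and Neuro-2A higher E2f4 (0.29 ± 0.05). The UTR of E2f3 held a 7mer-m8 match to the control mimic cel-miR-67, whose part was not tested. E2f2 was higher in both, by 0.45 ± 0.07 in Neuro-2A and, from a low level, by 0.98 ± 0.14 in astrocytes. With the block, 7 were higher and 1 lower in Neuro-2A, beside 37.8% of all genes called.

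Of the other CDK inhibitors, CDK2 and the genes of CDK activation, 3 of 10 were higher and 1 lower in astrocytes. The share of all genes called was 40.2% in astrocytes, 12.9% in Neuro-2A and 10.0% in BV-2. The p15 gene Cdkn2b fell from 100.6 ± 6.12 to 70.4 ± 2.50 TPM (−0.58 ± 0.05), while the CDK2-activating phosphatase Cdc25a (0.55 ± 0.07) and Ccnh, the cyclin of the CDK-activating kinase (0.19 ± 0.05), rose. The UTR of Cdkn2b held a 7mer-m8 match to miR-140-5p, whose part was not tested. The p18 gene Cdkn2c also rose in astrocytes (0.16 ± 0.06). In BV-2 Cdkn2c was higher (0.49 ± 0.09) and Cdk7 lower (−0.28 ± 0.07), 1 each of 10. In Neuro-2A none of 9 was called by edgeR, DESeq2 called 1, and the block called 4 higher and 1 lower. The block called 37.8% of all genes there.

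Of 16 p53 target genes, 4 were higher and 4 lower in astrocytes, where Gadd45a (−0.47 ± 0.04) and Zmat3 (−0.39 ± 0.04) fell with Cdkn1a and the apoptosis gene Pmaip1 rose (0.29 ± 0.09). The UTR of Zmat3 held 2 7mer-m8 matches to miR-140-5p, whose part was not tested. In Neuro-2A, 2 of 13 were lower, Btg2 (−0.63 ± 0.13) and Sesn2 (−0.24 ± 0.06). The block, which called 37.8% of all genes there, called 5 lower. In BV-2 1 of 14 was lower, Plk2 (−0.57 ± 0.06), and 1 higher, Pmaip1 (0.33 ± 0.06). With DESeq2, 1 was higher and 4 lower in astrocytes. Beside the edgeR counts, 40.2% of all genes were called in astrocytes, 12.9% in Neuro-2A and 10.0% in BV-2.

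Of 14 genes of the turnover of G1 regulators, 5 were higher and 3 lower in astrocytes, 2 higher and 1 lower in Neuro-2A, and 1 each in BV-2. Gsk3b, the kinase that marks cyclin D1 for export and degradation, was lower in all 3 cell types, in Neuro-2A (49.4 ± 7.05 against 75.8 ± 7.38 TPM, −0.60 ± 0.11), astrocytes (41.5 ± 1.502 against 49.3 ± 1.14 TPM, −0.31 ± 0.04) and, with overlapping groups, BV-2 (27.2 ± 1.27 against 32.4 ± 3.98 TPM, −0.32 ± 0.08). Its UTR held an 8mer match to miR-199a-3p and 2 7mer-m8 matches to miR-99b-3p. Fbxw7, which targets cyclin E for degradation, was higher in astrocytes (0.51 ± 0.05) and Neuro-2A (0.27 ± 0.07). The UTR of Fbxw7 held a 7mer-m8 match to cel-miR-67. Cks1b rose in astrocytes (0.40 ± 0.08), and Skp1a rose in all 3, by 0.46 ± 0.07 in Neuro-2A, 0.31 ± 0.05 in BV-2 and 0.15 ± 0.03 in astrocytes. The block called 5 higher and 5 lower in Neuro-2A, beside 37.8% of all genes. Of the transcription factors reported at the Ccnd1 promoter, 4 of 11 were lower in astrocytes, namely Tcf7l2 (−0.34 ± 0.05), Jun (−0.33 ± 0.10), Stat3 (−0.13 ± 0.03) and Rela (−0.12 ± 0.03), and Fosl1 was higher (0.42 ± 0.08). The TPM of the arms overlapped for Jun and Stat3. Without mix replicate 1, control replicate 2 or control replicate 3, the count of lower genes was 2. With the other scalings 1 was lower and 1 higher. In BV-2 Jun was lower (−0.25 ± 0.05) and Stat3 higher (0.22 ± 0.05) of 10 tested. Tcf7l2 held a 7mer-m8 match to miR-99b-3p, and Stat3 a 7mer-m8 and 2 8mer matches to cel-miR-67. The part of the matches in this paragraph was not tested. In Neuro-2A none of 11 was called by edgeR, DESeq2 or the block. Beside the counts of both lists, 40.2% of all genes were called in astrocytes, 12.9% in Neuro-2A and 10.0% in BV-2.

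**Figure D4:**
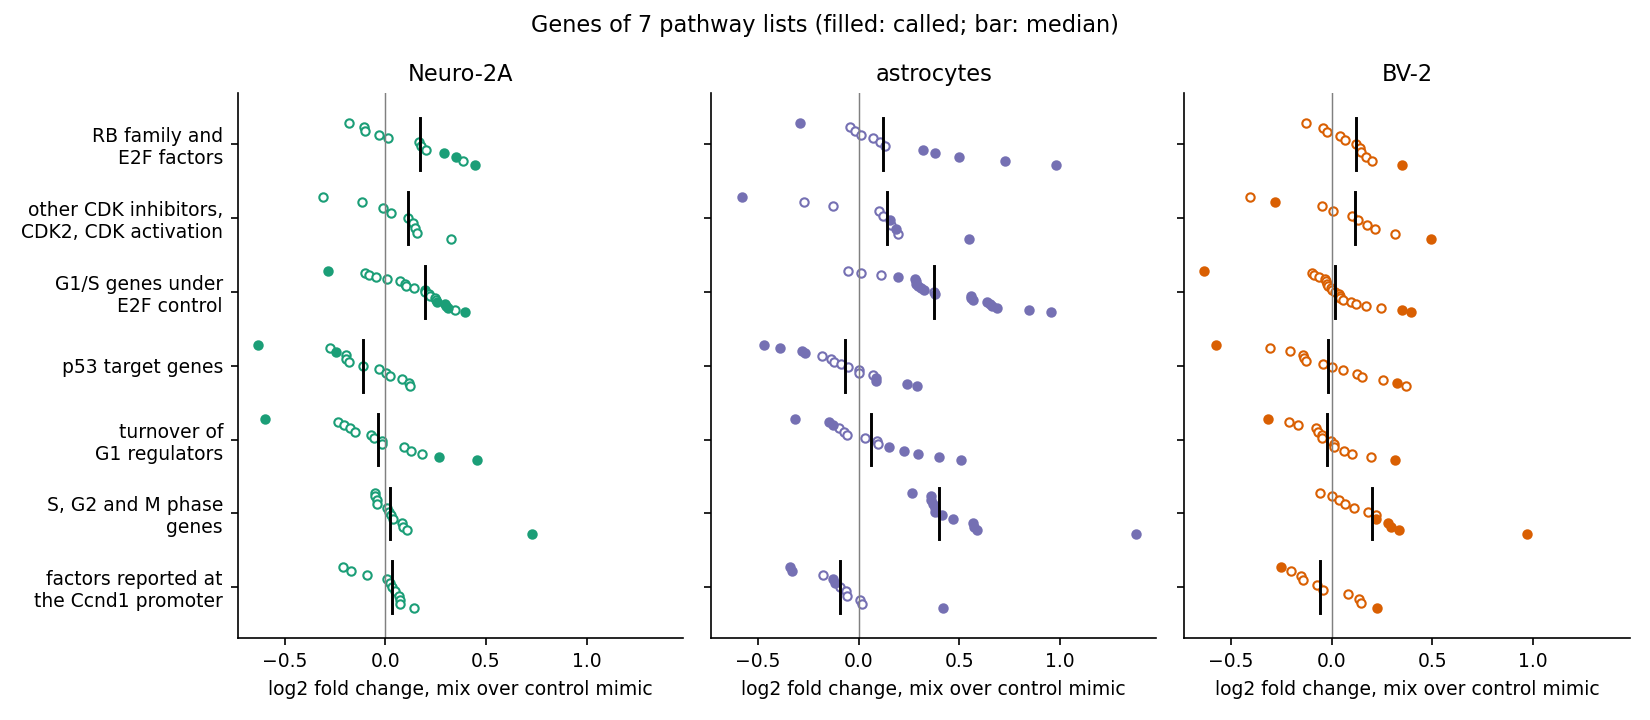
Log2 fold changes, mix over control mimic, of the tested genes of 7 pathway lists in each cell type; filled points were called, open points were not, and the black bar is the list's median. In astrocytes every S, G2 and M phase gene lies to the right of 0, with a median of 0.40, while the medians in Neuro-2A and BV-2 are 0.02 and 0.20.

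The genes whose log2 TPM followed Ccnd1 most closely over the 18 libraries were sought among 11908 genes. The closest were Akt2, a kinase of insulin signalling (Pearson r = 0.99), the thioesterase Lypla2 (0.98), the aconitase and iron regulator Aco1 (0.98), a gene model without a gene name (0.98) and the protease Sppl2b (0.98). Mean Akt2 levels in the control and mix arms were 55.6 and 71.7 TPM in astrocytes, 35.5 and 36.4 TPM in Neuro-2A, and 28.6 and 32.2 TPM in BV-2. The libraries fall into 3 cell types, so these correlations mostly rank genes by their levels in them and are given as a description. Within the set of 10, Cdkn1a was closest (r = 0.81), and Ccne1 (−0.92) and Cdk4 (−0.89) ran opposite to Ccnd1.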

How the data were processed

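Per the labels' protocols, poly(A) RNA was made into libraries with a directional kit. Per the submitters' processing notes, Trimmomatic 0.39, STAR 2.7.10b and mm10 were used, with no role or order given. Which tool counted the reads is not given in the sources used here. Per the file headers, raw counts and log2 TPM were deposited. Since many deposited counts hold fractions, they were taken for expected counts, which the authors had not normalized. In the log2 TPM the authors had set every TPM of 1 or less to 0 on the log2 scale. TPM printed here are 2 to the power of those log2 values, as deposited.

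For each cell type, rounded counts went into edgeR 4.0.16 (R 4.3.3), with filterByExpr at a minimum count of 10, TMM scaling, the quasi-likelihood test and Benjamini-Hochberg adjustment over all tested genes at 0.05. Differences of the mix effect and contrasts of the control arm came from 1 fit of all 18 libraries. The scripts were tested on simulated data. Alternatives were library size only, DESeq2 1.42.0, limma 3.58.1 on log2(TPM + 1), no filter, the replicate block, leaving out each library, and, chosen after seeing the data, numbers 2 and 3 of Neuro-2A alone and further fits of the pathway lists. UTRs came from GENCODE M21 for mm10. Depth, at 18.5 to 27.9 M counts, limits precision for low genes.

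The members and lists were chosen with earlier results of these data known. Of each list, the text names up to 3 called genes per cell type with the largest change, a mean of at least 5 TPM in the higher group and no overlap of the arms. Outside this rule, further cell types of a named gene, and Cdkn2c and E2f2 in astrocytes, Jun and Stat3 in astrocytes, Cdt1 in Neuro-2A and Gsk3b in BV-2, are given after their values were seen. In the file headers, mix and control libraries of the same replicate share a number, whose meaning is not given. Replicate numbers were taken to pair libraries where every same-number correlation of deviations from the group means was above 0.1. In Neuro-2A these were 0.59, 0.39 and 0.26, so values with the block are printed there where they change a call or a count by over 1.5 times. In astrocytes they were 0.11, 0.07 and 0.11 and in BV-2 0.01, 0.13 and −0.01, so those numbers were not taken as pairs.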

Additional observations from a re-analysis of the deposited data

Results flagged for a closer look

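The mix effect on 4 genes differed between cell types in the fit of all 18 libraries, by a test of the difference itself. For Ccnd1 the log2 effect in astrocytes exceeded that in Neuro-2A by 0.69 and that in BV-2 by 0.88. For Ccne2 the corresponding differences were 0.67 and 0.84. The first of these lost its call in a fit of the 12 libraries of that pair alone, and without most of those libraries in turn. For Ccnd2 the effect in astrocytes was 0.62 lower than in BV-2 (difference −0.62), with a fall in astrocytes and a rise in BV-2. For Rb1 it was lower by 0.59 (difference −0.59), with a fall in astrocytes and no call in BV-2. The value of Ccnd1 in astrocytes had brought the set forward, so these differences are a description and not independent support.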

How the results depend on the processing

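Of the single-gene values of the genes other than Ccnd1, 974 kept their side of the threshold. Of these, 935 kept their sign and 39, not called in either fit, changed it. A further 43 lost their call, 18 gained one, and 1 called value reversed, Cdkn1b between astrocytes and Neuro-2A in the control arm (−0.152 with library size only). For Ccnd1 itself, 5 values lost their call, all of them in BV-2, and 1 gained one. In astrocytes 6 members were called without any 1 library. Neuro-2A had 1 to 2, BV-2 0 to 4, the difference of the mix effect between astrocytes and Neuro-2A 1 to 2 (1 in a fit of 12 libraries), and that between Neuro-2A and BV-2 0 to 1. In BV-2 the Ccnd1 value was 0.182 to 0.231 without any 1 library and 0.198 with the replicate block, where it was not called. With the replicate block, 2 members were called for Neuro-2A minus BV-2, Ccnd1 (0.192) among them. Calls in the pathway lists numbered 15 in Neuro-2A, 44 with the block, 25 with numbers 2 and 3 alone, 26 in the fit of all 18 libraries and 6 to 18 without any 1 library. In Neuro-2A the block called 37.8% of all genes, against 12.9% without it. List calls in BV-2 numbered 17, and 5 to 33 without any 1 library, the highest without control replicate 2. In astrocytes there were 60, and 50 to 58 without any 1 library. Counting 7mer-A1 sites, 5 members held a match to the mix in place of 1, and no share of all genes was computed for that count. Of the counts of single lists, 78 moved by over 1.5 times, and of the other counts 33 did. The causes were not tested. The BV-2 block also ended the call of Ccnd2 and called Cdkn1b higher (0.32), and it changed no other member's call there or in astrocytes. Ccnd2 and Cdk6 had at most 6 counts per library in Neuro-2A, in libraries of 20.9 to 23.6 M counts. They were too low for the test within that cell type.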
